A study of Rattus norvegicus with 20 samples.

Results

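In the soleus of rats with a complete spinal cord transection, 154 genes stood more than 4-fold below their level in uninjured rats. They were chosen from 13398 genes with enough counts to test. A gene was taken when its uninjured mean was at least 1 CPM (a count scaled to the library's size, the usual CPM unit), when that mean was more than 4 times the transection mean, and when every transection library lay below every uninjured library. Of the 11437 genes with an uninjured mean of at least 1 CPM, 157 passed the fold limit, and 3 of these were left out because their libraries overlapped. The choice used measured values of the transection and uninjured groups. The difference between those groups therefore describes the 154 genes, and no test of it carries weight here. The comparisons of groups left out of the choice are those among the 3 contused groups, though their spread was fitted to all 20 libraries.

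The soleus is a slow postural muscle of the hind limb that is active for much of the day and rests largely on oxidative metabolism. Motor neurons and the limb's load set which contractile and metabolic genes its fibres express. A complete transection removes descending drive to the lower cord, while a contusion spares part of the tissue, so that some stepping may return. When a slow muscle loses activity or load, its fibres become thinner and shift toward a faster type.

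All rats were Sprague-Dawley, with 4 libraries in each of 5 groups. One group had no injury and is labelled 11.5 weeks. Another had a complete transection at thoracic level T2 and was sampled at 8.5 weeks. The remaining 3 groups had a 25 g-cm contusion at T2: one had no exercise and was sampled at 11.5 weeks, one swam (labelled SWIM), and one walked in shallow water (labelled SWW), the exercised groups being sampled at 13.5 weeks. Exercise began 2.5 weeks after injury and took place on 5 days a week for 10 weeks. All animals were moved after 4 days to small cages that limited their movement. Transection and uninjured groups therefore differ in labelled time as well as in injury, and exercised and unexercised contusion groups in time as well as exercise; these cannot be told apart. Libraries held 21165832 to 39729930 counts. The files give Ensembl identifiers with no gene names, and 0 of 24613 identifiers could be matched to a symbol, so the tissue could not be checked against marker genes and the functions of the members are not described. Members are called by their rank in uninjured abundance (rank 1 is the most abundant), and 4 are given by identifier. Counts were not divided by gene length, so abundance here is not a level per length.

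A single contused library stood apart from its group. Swimming library 2 lay among the transection libraries in its median level over the members, and the swimming group's comparisons are given with and without it. Over the other 13244 genes its mean absolute log2 difference was 0.461 from the rest of its own group, 0.484 from walking, 0.521 from contusion, 0.567 from transection and 0.586 from uninjured muscle. The other swimming libraries differed from the rest of their group by less, 0.258 to 0.398. It had 15478 genes with a count, within the range of the other contused libraries (15274 to 16103). Transection library 3 had the fewest genes with a count, 13837, and had 30 members at 0 counts where the other transection libraries had 3 to 7.

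The 154 genes covered the whole range of abundance. Their uninjured means ran from 1.04 to 27850 CPM, with a median of 16.0. Means of 1 to 10 CPM were found for 66 members, 10 to 100 for 55, and 100 or more for 33. These are 1.49%, 0.930% and 3.00% of all genes in the same ranges. The ratio of uninjured to transection means had a median of 5.99 and reached 124. It was between 4 and 5 for 51 members, 5 to 10 for 70, 10 to 20 for 17 and over 20 for 16. The genes just inside the limit had ratios of 4.02, 4.05 and 4.05, and those just outside 3.96, 3.96 and 3.97, so the limit does not mark a break in the values. The choice used transection against uninjured, so no weight is placed on the 149 members that passed edgeR's fit there. In that fit 14.7% of all genes were called lower and 13.4% higher.

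The 3 most abundant members made up most of the counts of the set. ENSRNOG00000010079, of rank 1, stood at 20165, 30310, 29544 and 31384 CPM in uninjured libraries 1 to 4 and at 3766, 6215, 4538 and 5650 CPM in transection libraries 1 to 4. Rank 2 stood at 16663, 15867, 17995 and 16544 CPM in uninjured and at 1614, 1661, 2418 and 3681 CPM in transection libraries. Rank 3 stood at 8716, 8518, 9237 and 10573 CPM in uninjured and at 542, 406, 833 and 1048 CPM in transection libraries. In all 3 the groups were far apart compared with the spread within them. Together the 154 members took 7.78 ± 0.328% of the counts in uninjured muscle and 0.973 ± 0.327% after transection (SD, n = 4 each). Without the 3 most abundant, the shares were 2.10 ± 0.558% and 0.293 ± 0.118% (SD, n = 4 each). In whole muscle, fewer cells of a type and less RNA per cell cannot be told apart.

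The largest ratio belonged to a gene of low abundance. ENSRNOG00000046421, of rank 116, stood at 2.62, 4.68, 2.73 and 1.96 CPM in uninjured libraries and at 0.0970, 0, 0 and 0 CPM in transection libraries. With 3 counts over the transection libraries against 436 over the uninjured ones, the ratio of transection to uninjured was 0.00828, with an exact 95% interval of 0.00170 to 0.0244 that covers counting error only. A count of 0 in transection library 4, the most deeply sequenced of the 3 at 0, allows up to 0.0864 CPM. No member was at 0 counts in all transection libraries. Rank 10 combined high abundance with a large ratio, at 867, 482, 542 and 1173 CPM in uninjured and 9.93, 12.8, 10.2 and 18.3 CPM in transection libraries.

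Members differed between animals of a group more than other genes did. The median SD of log2 CPM within the uninjured group was 0.407 over the members and 0.213 over all genes with an uninjured mean of at least 1 CPM. Within the contusion group the values were 0.408 and 0.198, and within the swimming group 0.879 and 0.267, or 0.386 and 0.226 without library 2. Rank 4, for example, ranged from 2269 to 6731 CPM among uninjured animals, and at 2078 CPM in transection library 4 it only just stayed below them. The set therefore holds genes with wide as well as narrow spread between animals.

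**Figure D1:**
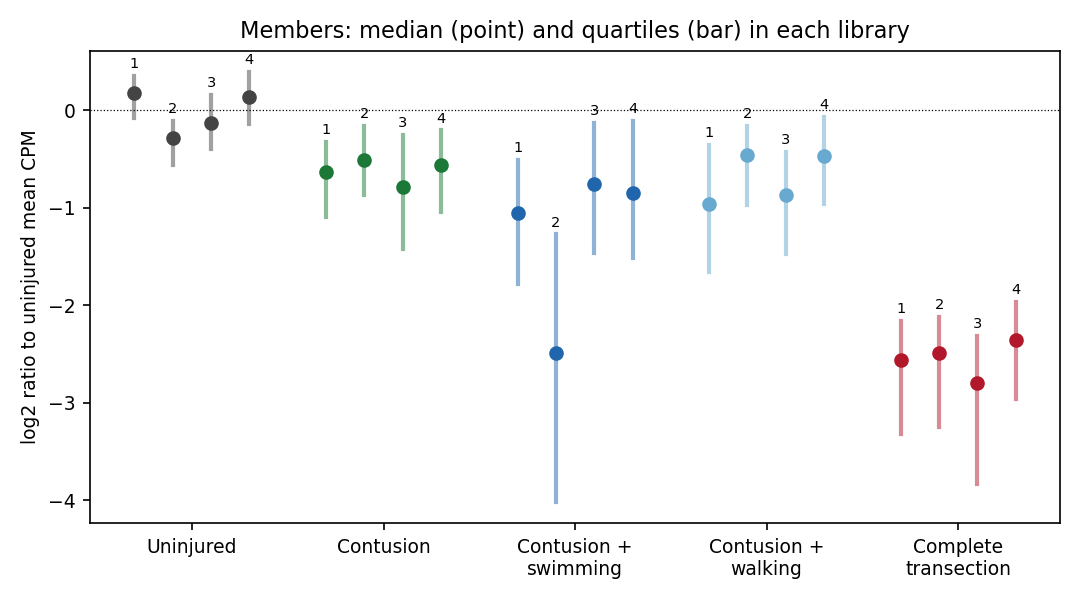
Points give the median over the 154 members of the log2 ratio to the uninjured mean CPM in each library, and bars run between the quartiles of the members; numbers are library numbers. Unexercised contusion libraries lie between -0.79 and -0.51, transection libraries between -2.80 and -2.36, and swimming library 2 lies at -2.49, among the transection libraries.

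After contusion without exercise most members stood somewhat below uninjured levels, far above transection levels. The contusion mean was below the uninjured mean in 139 of 154 members, while 47.8% of all genes had an edgeR log2 difference below 0. The median ratio to uninjured was -0.61 on the log2 scale, or 65.3% of the uninjured level, against 0.00 over all genes with an uninjured mean of at least 1 CPM; the median after transection was -2.58, or 16.7%. By library the median over the members was -0.63, -0.51, -0.79 and -0.56 in contusion libraries 1 to 4. The uninjured libraries were used in choosing the members, so these values are a description.

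The size of the contusion difference varied among members. The contusion mean was within 2-fold of uninjured for 111 members, 2 to 4-fold lower for 37, over 4-fold lower for 4 and over 2-fold higher for 2. Among all genes with an uninjured mean of at least 1 CPM, 98.6% were within 2-fold. None of the 154 members passed edgeR's test for contusion against uninjured (0 called, as for all genes, 0%), while 55 were lower and 0 higher at an unadjusted p under 0.05, where 4.76% of all genes were lower and 5.04% higher. With DESeq2 12 members passed, all lower, where 0.456% of all genes were lower and 0.284% higher. With voom 5 passed, all lower, where 0.0896% of all genes were lower and 0.0896% higher. In 46 members every contusion library lay below every uninjured library, as in 3.94% of all genes, and in 0 above, as in 3.58%. In 39 the contusion libraries also lay above every transection library, as in 1.10% of all genes.

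Among the members most affected by contusion was the gene of rank 50. Values were 58.8, 30.7, 37.8 and 58.0 CPM in uninjured libraries, 7.65, 7.88, 1.51 and 8.81 CPM in contusion libraries, and 1.29, 0.837, 0 and 0.951 CPM in transection libraries. The 3 groups did not overlap, and the contusion mean was 13.9% of the uninjured mean (log2 difference -2.84, SE 0.55, edgeR adjusted p = 0.0729). Ranks 44 and 53 shared the smallest adjusted p, 0.0521, by edgeR, and rank 44 had the lower unadjusted one (log2 difference -1.53, SE 0.27). Rank 44 stood at 74.0, 50.4, 42.7 and 78.6 CPM in uninjured libraries and 18.7, 27.7, 18.4 and 20.3 CPM in contusion libraries. Ranks 44 and 50 did not pass, and neither had a contusion library among the uninjured ones. They were picked after their values were seen, and the uninjured libraries were used in choosing the members. The values and p-values here are therefore a description.

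At the other end were members at uninjured level after contusion. Means after contusion were above uninjured in 15 members. ENSRNOG00000010079 stood at 31465, 25209, 19360 and 32559 CPM in contusion libraries, with a mean of 97.5% of the uninjured mean. Rank 3 stood at 10212, 9063, 9253 and 9386 CPM, a mean of 102% of uninjured. Both overlapped the uninjured range, and both lay far above every transection library. The highest ratio to uninjured was that of the member of rank 121, at 2.60, 6.18, 14.3 and 3.50 CPM after contusion against 2.71 ± 0.621 CPM in uninjured muscle (SD, n = 4); its mean rested largely on contusion library 3 (log2 difference 1.30, SE 0.84, edgeR adjusted p = 0.676).

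**Figure D2:**
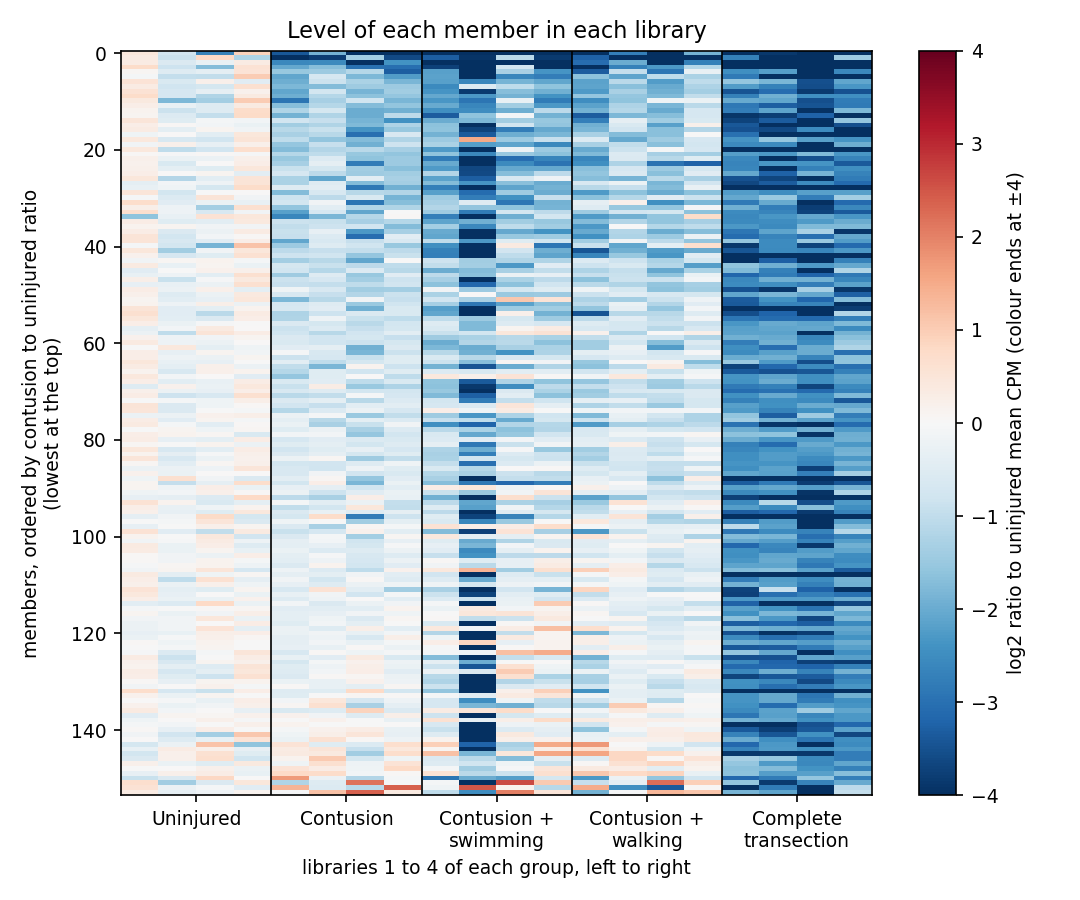
Each row is a member and each column a library, with colour for the log2 ratio to the uninjured mean CPM; rows run from the lowest contusion to uninjured ratio at the top to the highest at the bottom. Swimming library 2, the second column of its group, is dark blue in many rows whose other contused libraries are pale, and 11 members are above the uninjured mean in it.

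Transection and contusion were compared directly, at 8.5 and 11.5 weeks. After transection 124 of the 154 members were lower than after contusion and 0 higher (edgeR adjusted p below 0.05), where 9.26% of all genes were called lower and 6.07% higher. The transection libraries had been used to choose the members, so no weight is placed on this count. In 129 members every transection library lay below every contusion library, as in 12.5% of all genes, and in 0 above, as in 9.24%. The log2 difference of ENSRNOG00000010079 was -2.43, with SE 0.56 (adjusted p = 6.93e-03 by edgeR). ENSRNOG00000046421, named for its largest ratio of uninjured to transection, stood at 2.21, 3.19, 0.962 and 2.17 CPM after contusion (edgeR adjusted p = 3.45e-04). The transection libraries were used in choosing both genes, so these p-values are a description and no weight is placed on them.

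With swimming, the members stood lower than after contusion alone, and much of the group difference came with swimming library 2. By library the median over the members was -1.06, -2.49, -0.76 and -0.85 in swimming libraries 1 to 4, as log2 ratios to the uninjured mean. The swimming mean was below the contusion mean in 115 of 154 members, while 48.9% of all genes had an edgeR log2 difference below 0. The median edgeR log2 difference between swimming and contusion was -0.48 over the members and 0.01 over all genes tested. Without swimming library 2 the mean was below contusion in 97 members, and the median log2 ratio of the means moved from -0.48 to -0.26.

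Swimming and contusion libraries were not used to choose the members, though the spread was fitted to all 20 libraries, including those that were. In the test of swimming against contusion, 5 of 154 members were lower and 0 higher (edgeR adjusted p below 0.05). The background was 2.25% of all genes lower and 2.22% higher, so the share of members lower was close to that of all genes. At an unadjusted p under 0.05, 33 members were lower and 11 higher, where 11.0% and 11.6% of all genes were. In 15 members every swimming library lay below every contusion library, against 6.81% of all genes, and in 5 members above, against 7.38%. Leaving out swimming library 2 gave 16 members below and 7 above, against 9.50% and 9.99% of all genes. Without swimming library 2, 25 members were lower and 10 higher at an unadjusted p under 0.05, where 10.2% and 9.31% of all genes were. The count of 5 called members, among 600 of all genes called, became 0 without swimming library 2, where 108 of all genes were called. It was also 0 without contusion library 1, 2 or 4, where 1, 65 and 54 of all genes were called. It was 11, 3 of them higher, without contusion library 3 (504 of all genes called). Without swimming library 4 it was 3 (448 of all genes called). With the compared groups alone it was 2, of 148 members tested (322 of all genes called). DESeq2 called 19 of the 148 members to which it gave an adjusted p, 15 lower and 4 higher, where 4.45% of all genes were lower and 5.51% higher. Voom with sample weights called 26 members, 20 lower and 6 higher, where 6.79% of all genes were lower and 6.31% higher.

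ENSRNOG00000015449, of rank 134, had the smallest p among the lower members. It stood at 1.11, 2.30, 0.460 and 1.56 CPM in contusion libraries and at 0.517, 0.177, 0.128 and 0.196 CPM in swimming libraries. In swimming library 2 a level of 0.132 CPM corresponds to 3 counts, so its value of 0.177 CPM there rests on few reads. Swimming libraries 2 to 4 lay below every contusion library, and swimming library 1 overlapped contusion library 3. The log2 change was -2.36 (SE 0.52, edgeR adjusted p = 0.0227), with adjusted p from 1.16e-03 to 0.0760 over the alternatives. Without swimming library 2 the adjusted p was 0.0548 and the log2 change -2.23. The call was also lost without contusion library 1, 2 or 4 (adjusted p = 0.0617, 0.0760 and 0.0551 by edgeR). It was lost too with the compared groups fitted alone (adjusted p = 0.0544 by edgeR). Walking libraries held 1.61, 1.92, 0.894 and 1.30 CPM, and transection libraries 0.0970, 0.182, 0.0441 and 0.0864 CPM. The other 4 called members, of ranks 16, 33, 52 and 104, had log2 changes of -0.87, -1.09, -0.69 and -2.04.

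Among the members on the higher side, ENSRNOG00000019288 had the smallest p and did not pass. It stood at 9.27, 10.2, 6.53 and 7.82 CPM with swimming and at 5.97, 5.78, 4.31 and 5.61 CPM after contusion, with no overlap. The log2 difference was 0.64 (SE 0.19, edgeR adjusted p = 0.0521), and the adjusted p ran from 0.0136 to 0.137 over the alternatives, the highest being that without swimming library 2 (log2 difference 0.54). Its uninjured libraries held 8.04, 6.67, 9.06 and 6.21 CPM, a range that overlaps the swimming libraries, and its transection libraries 1.58, 1.75, 1.54 and 1.99 CPM.

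**Figure D3:**
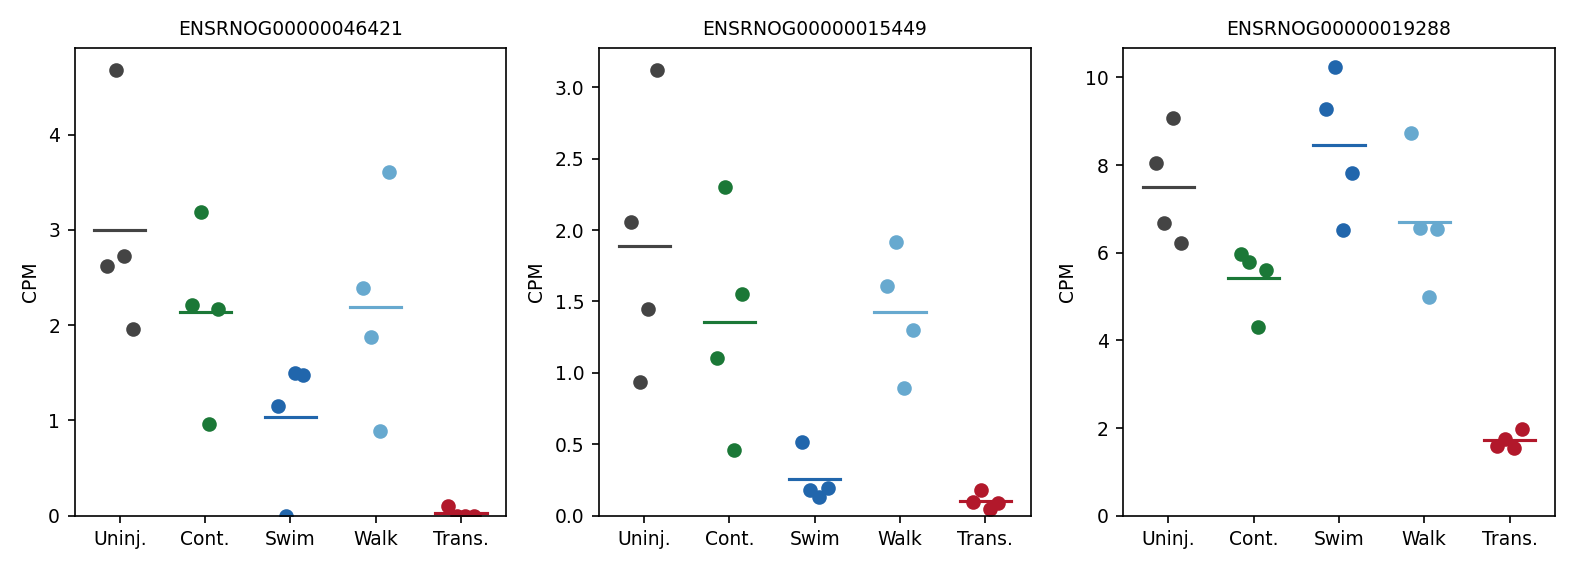
CPM of 3 members in each library (points; libraries 1 to 4 from left to right in each group) with group means (lines). ENSRNOG00000046421 is at 0 in swimming library 2 and in 3 transection libraries. ENSRNOG00000015449 is below every contusion library in swimming libraries 2 to 4, and its swimming library 1 overlaps contusion library 3. ENSRNOG00000019288 is higher with swimming than after contusion alone.

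Swimming library 2 held most members at or below the levels seen after transection. In 93 of the 154 members its value was no higher than the highest transection library, as in 71.0% of all genes. In 41 members it was below all 4 transection libraries, and the share of all genes was not taken for this. The transection values were used in choosing the members, so these counts are a description. The other 11 contused libraries had 3 to 27 members at or below the highest transection value, where 66.6 to 74.3% of all genes were. It was the lowest of the 12 contused libraries in 102 members, or 66.2%, against 18.1% of all genes. Its members took 0.459% of its counts, below every transection library (0.770 to 1.46%), where the other swimming libraries had 5.28, 6.42 and 6.49%. Its 50 most abundant genes took 49.6% of counts, more than in the other swimming libraries and within the range of the contused libraries. Its total, 21165832, was the lowest of the 20 libraries, and the part of depth in this result was not tested.

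The most abundant members showed this most plainly. ENSRNOG00000010079 stood at 15518, 728, 16999 and 19826 CPM in swimming libraries 1 to 4. Rank 2 stood at 15831, 639, 17426 and 18640 CPM, and that of rank 3 at 5918, 256, 8048 and 7722 CPM. In each of the 3, library 2 was below every transection library. The other swimming libraries of rank 2 lay around the uninjured values, while those of ENSRNOG00000010079 and rank 3 lay below every uninjured library. Swimming against contusion for ENSRNOG00000010079 differed by -1.03 on the log2 scale, with SE 0.53 (adjusted p = 0.262 by edgeR), and by -0.64 without library 2 (adjusted p = 0.111 by edgeR). Rank 10 was at 2.78 CPM in library 2 and at 115, 377 and 179 CPM in the others. ENSRNOG00000046421 had 0 counts in library 2, which allows up to 0.132 CPM, and 1.16, 1.49 and 1.48 CPM in libraries 1, 3 and 4.

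**Figure D4:**
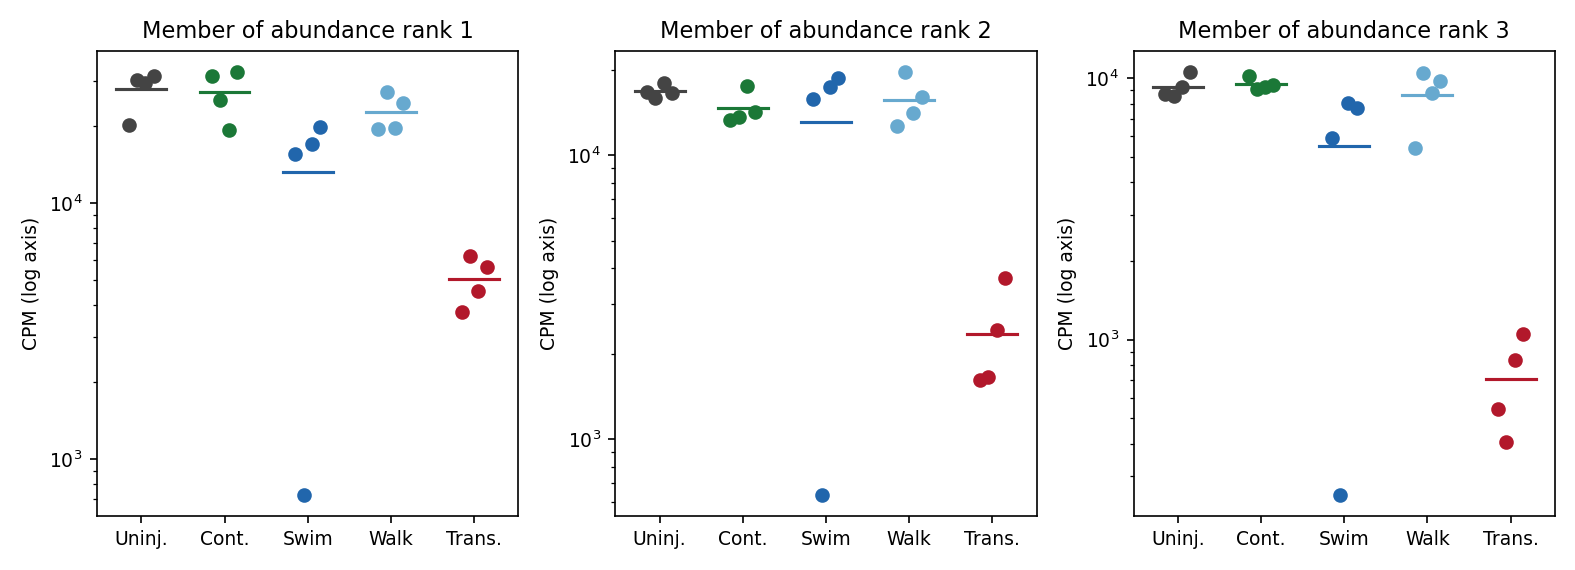
CPM on a log axis of the 3 most abundant members in each library (points; libraries 1 to 4 from left to right in each group) with group means (lines). Swimming library 2 lies at 728, 639 and 256 CPM, below all transection libraries, while the other contused libraries lie far above them.

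Not all members were low in that library. The 61 members above the transection range in swimming library 2 had a median log2 ratio to uninjured of -1.01 there, and 11 members were above the uninjured mean. The member of rank 34 stood at 239 CPM in library 2, its highest value among the 20 libraries, against 93.7 ± 30.6 CPM in uninjured and 22.0 ± 9.14 CPM in transection libraries (SD, n = 4 each). The 93 members within the transection range had a median of -3.70 in library 2, of -1.12 in the mean of the other 3 swimming libraries, of -0.65 after contusion and of -0.78 with walking. For the 61 others these medians were -0.36, -0.52 and -0.38 in the same order. Members low in library 2 were thus also the lower ones in the remaining swimming libraries, as a description of a division made from the values. Over 16-fold below uninjured in library 2 were 40 members, of which 15 had an uninjured mean of at least 100 CPM; after contusion their median was -0.48.

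**Figure D5:**
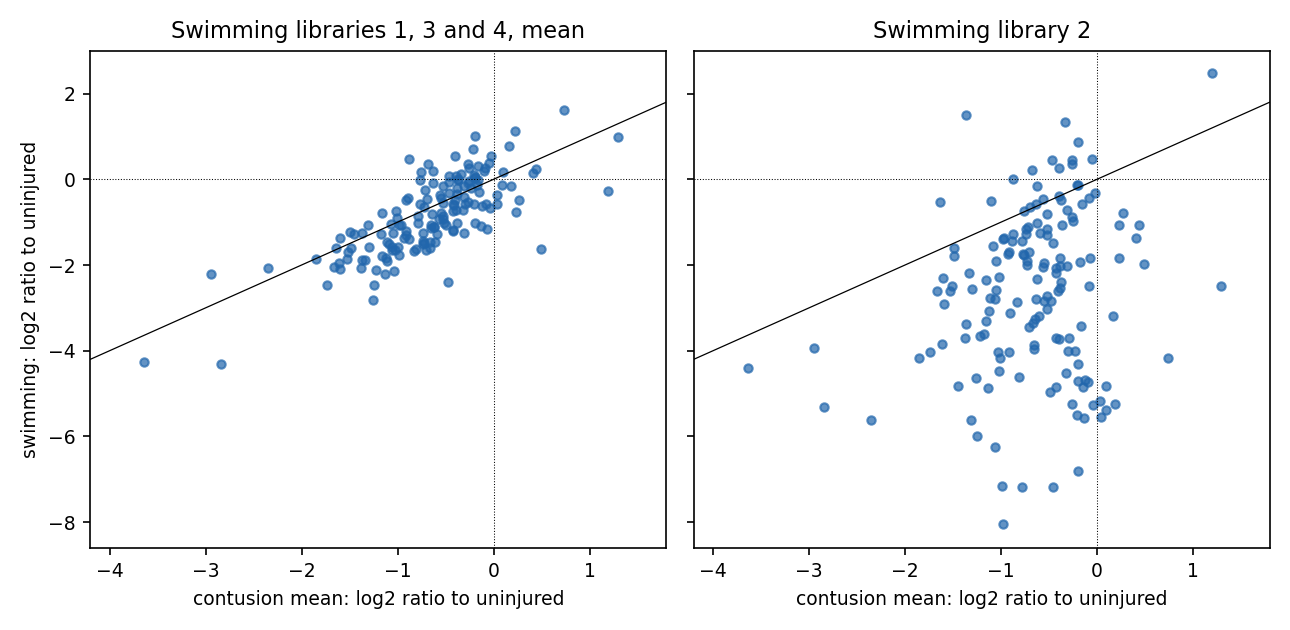
Each point is a member, with its contusion mean on the x axis and swimming on the y axis, both as log2 ratios to the uninjured mean CPM; the diagonal marks equal values. The mean of swimming libraries 1, 3 and 4 (left) runs along the diagonal with 97 of 154 members below the contusion mean, while in library 2 (right) many members near 0 after contusion lie below -4.

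Against uninjured muscle, 65 members were lower with swimming and 0 higher (edgeR adjusted p below 0.05), where 10.1% of all genes were called lower and 9.99% higher; the uninjured libraries were shared with the choice of members. Swimming means were within 2-fold of uninjured for 69 members, 2 to 4-fold lower for 58, over 4-fold lower for 25 and over 2-fold higher for 2. Among all genes with an uninjured mean of at least 1 CPM, the shares were 94.2%, 2.01%, 0.324% and 3.43%. Without library 2 the numbers of members were 76, 55, 19 and 4, and their median log2 ratio was -0.85 in place of -1.11. Without library 2 there were 60 members called lower and 1 higher, where 8.89% and 7.61% of all genes were. At an unadjusted p under 0.05, with library 2, 91 members were lower and 1 higher, where 16.8% and 17.8% of all genes were. In 73 members every swimming library lay below every uninjured library, against 11.6% of all genes, and in 1 above, against 11.5%; without library 2 the numbers were 76 and 2, against 15.3% and 15.05%. All swimming libraries lay above every transection library in 51 members, as in 13.3% of all genes, and also below every uninjured library in 14, as in 0.373%; without library 2 these numbers were 116 and 51, against 18.0% and 1.25% of all genes. Ranks 50 and 20 lay below every uninjured library in all swimming libraries: rank 50 stood at 1.98, 1.06, 2.43 and 2.32 CPM with swimming, and rank 20 at 76.4, 84.7, 95.7 and 85.2 CPM against 231, 180, 187 and 221 CPM in uninjured libraries. Library 2 was within the range of the other swimming libraries for rank 20. For rank 50 it was below them, and below transection library 1 at 1.29 CPM.

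Between shallow water walking and contusion alone no member was found to differ. By library the median over the members was -0.96, -0.46, -0.87 and -0.47 in walking libraries 1 to 4, around the contusion values. The walking mean was below the contusion mean in 69 of 154 members, while 49.0% of all genes had an edgeR log2 difference below 0. The median edgeR log2 difference from contusion was 0.04 over the members, with quartiles of -0.24 and 0.17, and 0.01 over all genes. None of the members passed edgeR's test (0 called, as for all genes, 0%), nor did any with DESeq2 or voom (0% of all genes with each), and 2 were lower and 2 higher at an unadjusted p under 0.05, where 2.02% and 1.16% of all genes were. Every walking library lay below every contusion library in 3 members, against 1.87% of all genes, and above in 2, against 1.04%. The median SE of a member's log2 difference was 0.45, and the SE ran from 0.16 to 1.22, so the precision differed widely between members.

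Against uninjured muscle 6 members were lower with walking and 0 higher (edgeR adjusted p below 0.05), where 0.299% of all genes were called lower and 0.164% higher; these were the members of ranks 20, 21, 44, 50, 53 and 79. Rank 21 stood at 56.7, 83.8, 63.2 and 75.2 CPM with walking against 232, 136, 141 and 247 CPM in uninjured libraries (log2 change -1.44, SE 0.21, edgeR adjusted p = 7.68e-03). After contusion alone it stood at 103, 101, 74.4 and 85.2 CPM, and after transection at 32.0, 33.5, 39.2 and 47.9 CPM. Its walking and contusion libraries overlapped, and both groups lay between the uninjured and the transection libraries. The count of 6, among 62 of all genes called, was 2 without uninjured library 1, uninjured library 4 or walking library 1. In those runs 14, 7 and 10 of all genes were called. It was 3 without walking library 4 (30 of all genes called) and 1 without walking library 3 (5 of all genes called). At an unadjusted p under 0.05, 56 members were lower and 0 higher, where 7.19% and 6.44% of all genes were. In 45 members every walking library lay below every uninjured library, against 5.09% of all genes, and in 1 above, against 4.41%. Again the uninjured libraries were shared with the choice of members.

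The exercise groups were compared directly, both at 13.5 weeks. None of the members passed edgeR's test of swimming against walking (0 called, where 0.00746% of all genes were lower and 0% higher). At an unadjusted p under 0.05 by edgeR, 26 were lower and 5 higher with swimming, where 7.31% and 8.00% of all genes were. DESeq2 called 8 of the 148 members to which it gave an adjusted p, all lower with swimming, where 0.513% of all genes were lower and 0.646% higher. Voom called 2, both lower, where 0.806% of all genes were lower and 1.55% higher. The swimming mean was below the walking mean in 112 of 154 members, and the median edgeR log2 difference was -0.39, against 0.01 over all genes. Of all genes 48.4% had an edgeR log2 difference below 0. Without swimming library 2 the mean was below walking in 93 members, the median log2 difference was -0.19, and 0 members were called by edgeR (smallest adjusted p = 0.283). At an unadjusted p under 0.05, 18 were then lower and 9 higher, where 6.67% and 6.73% of all genes were. In 16 members every swimming library lay below every walking library, against 3.49% of all genes, and in 2 above, against 3.08%; without swimming library 2 the numbers were 17 and 4, against 5.99% and 5.26%. With all libraries the smallest adjusted p was 0.160, for ENSRNOG00000015449, whose log2 difference was -2.43 (SE 0.51).

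The pattern was compared across abundance. Members at 1 to 10 CPM, 10 to 100 CPM and 100 CPM or more in uninjured muscle had median log2 ratios to uninjured of -0.63, -0.59 and -0.42 after contusion. With walking the medians were -0.82, -0.64 and -0.60, and with swimming -1.37, -0.89 and -1.12. Without swimming library 2 the swimming medians were -1.19, -0.65 and -0.79, the middle one beside -0.64 with walking.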

How the data were processed

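Poly-A RNA of rat soleus was sequenced from stranded libraries, per the labels' protocols. The authors deposited whole-number counts per Ensembl gene; the submitters' processing notes list FastQC 0.10.1, HTSeq and build rn6, and the aligner, annotation and strand setting are not given in the sources used here. Overlapping genes and near-identical copies may share counts. Groups came from the labels and columns were matched by label. Replicates of a group differed beyond counting error (chi-square per degree of freedom 22.8 to 429 over 30 pairs); the labels do not say whether libraries with the same number share a cage or day.

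Genes were kept with filterByExpr (minimum count 10) and given TMM scaling factors, and CPM was computed from the scaled totals. Tests were quasi-likelihood F tests of edgeR 4.0.16 (R 4.3.3) in 1 robust fit of the 5 group means to all 20 libraries, with 15 residual degrees of freedom, prior count 0.125 and Benjamini-Hochberg adjustment over 13398 genes (threshold 0.05). Each SE was taken as the log2 change over the root of its F. Log2 ratios by library used a pseudocount of 0.1 CPM. Alternatives used DESeq2 1.42.0, limma 3.58.1 (voom, with sample weights), other scalings and filters, a replicate block, and libraries left out. The tests were tested on simulated data; figures used matplotlib 3.10.9.

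The members and lists were chosen with earlier results of these data known. Gene lists, marker lists and sequences could not be used, since the RefSeq table (GRCr8) pairs 0 of its 47357 genes with an Ensembl identifier. For tables without symbols the naming rule gave the member most abundant in uninjured muscle, the one with the largest ratio, and those with the smallest p lower and higher with swimming against contusion; other members are given by abundance rank and were picked after their values were seen. A p measures the spread between these libraries.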

Additional observations from a re-analysis of the deposited data

Results flagged for a closer look

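Among 90 groups of 4 values examined (the members' share of counts, their median, and the CPM of the named members and the 12 most abundant), 12 had 1 value set apart from the remaining 3; about 4.5 would be set apart by chance. Of these, 6 were in transection library 4: the members took 1.46% of its counts, the next highest 0.881%, and 0.470% without the 3 most abundant, the next highest 0.243%. Rank 4 stood at 2078 CPM there, that of rank 6 at 758, that of rank 7 at 241 and that of rank 12 at 87.7, against 801, 188, 103 and 57.8 CPM in the next highest library. Without this library 189 genes in place of 154 met the choice of members. The value of rank 2 in swimming library 2 was 639 CPM, the next lowest 15831. The median over all members did not pass the same measure in any group, but swimming library 2 missed it narrowly. Its median was -2.49, with the next lowest swimming library at -1.06 and the highest at -0.76.

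ENSRNOG00000010079 was at 20165 CPM in uninjured library 1, the next lowest at 29544. In transection library 1, ENSRNOG00000046421 reached 0.0970 CPM, and its other transection values were 0. Rank 8 was at 1270 CPM in swimming library 3, the next highest 180. Rank 9 was at 322 CPM in walking library 1, the next lowest 584, and that of rank 10 at 264 CPM in contusion library 3, the next lowest 413. By edgeR's direct test 124 members were lower after transection than after contusion and 0 higher. Of all genes 9.26% were called lower and 6.07% higher. The transection libraries were used in choosing the members, so no weight is placed on this count. The transection and contusion groups also differed in labelled time, so injury and time cannot be told apart here.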

How the results depend on the processing

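The number of members was 247 with library totals as the only scaling and 274 with a fold limit of 3; it was 156 with median-of-ratios scaling, 155 without the low-count filter, 103 with a fold limit of 5, and 144 to 189 with a library left out. In the counts of called members that follow, brackets give the number of all genes called in the same run. For swimming against contusion, the 5 (600) called members became 3 (527) with median-of-ratios scaling and 2 (299) with library totals only, 1 of them higher. They became 2 without the filter (317) or with the compared groups alone (322), 19 (1203) with DESeq2 and 26 (1755) with voom. With a library left out they were 0 to 11 (1 to 504). Contusion against uninjured gave 3 (12) with library totals only, 12 (99) with DESeq2, 5 (24) with voom and 5 (28) with the compared groups alone. With a library left out it gave 0 to 3 (0 to 15). Walking against uninjured, at 6 (62) in the main run, gave 24 (375) with DESeq2, 23 (388) with voom and 19 (142) with the compared groups alone. With a library left out it gave 1 to 9 (5 to 75). Swimming against walking gave 8 (140) with DESeq2, 2 (315) with voom, and 0 to 4 (0 to 298) with a library left out. Swimming library 2 and transection library 3 were also left out together, a choice made after seeing the data. This gave 9 (634) members for swimming against contusion, 8 (46) for contusion against uninjured and 27 (318) for walking against uninjured. The causes were not tested. Swimming against uninjured, transection against contusion and walking against contusion stayed within 1.5 times their counts in every alternative run. With a library left out, swimming against uninjured gave 45 to 68 (1459 to 2572) and transection against contusion 112 to 125 (1391 to 2175). Walking against contusion gave 0 (0) throughout. The median ratios to uninjured moved by less than the SD between the library medians of the group. With a library left out they ran from -0.69 to -0.52 for contusion, -1.21 to -0.86 for swimming and -0.75 to -0.56 for walking. For swimming that SD, 0.811, includes library 2 itself, so the comparison says little about leaving out that library. With the replicate number as a block, 2 (343) members were called for swimming against contusion in place of 5. The block gave 63 (2489) for swimming against uninjured, 7 (68) for walking against uninjured and 124 (1896) for transection against contusion. No consistent pairing of libraries by number was seen, and a pairing within some groups was not tested. Of 40 same-numbered pairs, 8 correlated above 0.1 (median 0.01), and 5 of 20 libraries correlated best with their own number. The highest same-numbered correlation, 0.43, was between contusion and swimming libraries 3, and the lowest was -0.29. Low counts limit members near 1 CPM.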
